A study of Mus musculus with 5 samples.

Results

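The genes of the cytosolic ribosomal proteins were followed through the hours after a seizure in the mouse hippocampus. Members were chosen by their gene symbol, namely Rpl or Rps with a number and an optional a, x or l, the stalk genes Rplp0, Rplp1 and Rplp2, and Rpsa and Rpl22l1, which leaves out symbols marked as pseudogenes and the Rps6ka kinases. The rule found 84 of the 55385 genes in the deposited tables, 52 of the large and 32 of the small ribosomal subunit. Of these, 81 passed the filter on low counts, 49 of the large and 32 of the small subunit, and entered the tests.

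Hippocampi of male C57/bl6 mice, 3 months old, were the source of the total RNA sequenced. The libraries were 1 of untreated control mice and 4 of mice that had received kainic acid, an agonist of glutamate receptors that provokes seizures, at 20 mg/kg by intraperitoneal injection. The kainic acid (KA) libraries were taken after seizure onset, 1 at 1 h, 2 at 4 h and 1 at 8 h. The labels call the control untreated, so kainic acid and its injection cannot be told apart, and the sources used here do not say whether a library came from 1 mouse.

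A ribosome is built from ribosomal RNA and a fixed set of proteins, nearly all present in a single copy, so that its genes are usually expressed at matched levels. Their messages commonly begin with a C followed by a run of pyrimidines, the terminal oligopyrimidine tract, through which growth signals acting on mTOR control their translation more than their abundance. In neurons, translation in the cell body and in dendrites is needed for lasting synaptic change.

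To look for this feature, which the choice of members did not use, sequence around the transcription start was taken from the promoters of RefSeq (GRCm38.p6). A promoter was matched for 62 of the 84 members, 39 of the large and 23 of the small subunit, and of several starts the start nearest to the annotated gene end was used. Each line gives 15 bases before the start and 15 from the start on, on the strand of the gene, with the longest unbroken run of C and T in capitals. The first 4 genes were taken from the members that start within such a run, and the last pair are the paralogs on which the results below turn.
Rps6: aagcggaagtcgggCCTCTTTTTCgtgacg
Rps27: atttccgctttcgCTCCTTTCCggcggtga
Rps21: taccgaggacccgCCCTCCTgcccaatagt
Rplp2: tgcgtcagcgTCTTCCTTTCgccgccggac
Rpl22l1: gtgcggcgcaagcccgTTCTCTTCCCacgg
Rpl22: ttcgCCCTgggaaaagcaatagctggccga

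These windows lie at chr4:86857353-86857382 (Rps6, minus strand), chr3:90213634-90213663 (Rps27, minus strand), chr2:180257364-180257393 (Rps21, plus strand), chr7:141447636-141447665 (Rplp2, plus strand), chr3:28805493-28805522 (Rpl22l1, plus strand) and chr4:152325711-152325740 (Rpl22, plus strand). In Rpl22l1 the annotated start was a G, directly followed by a run of 10 pyrimidines, whereas the longest run in the window of Rpl22 had 4. A start at C followed by at least 4 bases that were C or T was found in 13 of the 62 matched members, in 7 of 39 of the large and in 6 of 23 of the small subunit, and in 2.51% of all 32851 promoters. The 7 of the large subunit include Rpl32l, which is annotated as a pseudogene. The median of the longest run was 7 bases in the members and 4 in all promoters. In the 300 bases of each promoter, searched on both strands, the ETS-type motif CCGGAAG was present in 24 of 62 members (38.7%) and in 8.86% of all promoters. The YY1-type motif AAGATGGC was present in 4 members (6.45%) and in 2.75% of all promoters, and the SP1-type motif GGGCGG in 36 members (58.1%) and in 35.7% of all promoters. A match describes these letters only. An annotated start can differ from the start used in the hippocampus by several bases.

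The control library held 19100374 counts on genes, the library at 1 h 17744508, replicates 1 and 2 at 4 h 18250114 and 19109204, and the library at 8 h 16612225. Values are given as normalized CPM, counts scaled to a common library total after TMM normalization, a method that assumes that most genes do not differ between libraries. The treatment labels were checked on the immediate early genes Fos and Arc. Fos had 10.8 normalized CPM in the control, 999.2 at 1 h, 519.3 and 70.4 in the pair at 4 h and 17.2 at 8 h. Arc had 147.5 in the control, 2022 at 1 h, 2593 and 928.0 in the 4 h pair and 151.6 at 8 h. Both were above the control at 1 h and in both libraries at 4 h, and replicate 1 was above replicate 2 for each. The 8 immediate early genes listed had a summed level of 257 normalized CPM in the control, 5678 at 1 h, 3923 and 1171 in the 4 h pair and 243 at 8 h, with median log2 fold changes of 5.40, 2.91 and -0.27. None of the 8 passed after adjustment, and 8, 3 and 0 had an unadjusted p under 0.05 in edgeR at 1, 4 and 8 h, beside 2.42%, 11.6% and 4.51% of all genes tested.

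The pair at 4 h also differed in markers of the choroid plexus. The 6 choroid plexus markers had a summed level of 3997 normalized CPM in the control, 1688 at 1 h, 30.1 and 4282 in the 4 h pair and 3102 at 8 h. Transthyretin (Ttr), the most abundant of them, had 3747, 1573, 16.3, 3971 and 2884. Replicate 1 at 4 h had by far the least of these markers, and none of the 6 was at 0 in every library. Fewer cells of a type and less RNA per cell cannot be told apart in these bulk samples.

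The subunits had similar median levels in the control, while single members ranged widely. Per kb of transcript, the median of the 49 large subunit genes that passed the filter was 131 and that of the 32 small subunit genes 140 normalized CPM. The highest levels per kb in the large subunit were those of the acidic stalk protein gene Rplp1 (540), of Rpl3 (351), whose product lies near the peptidyl transferase centre, and of Rpl9 (279). In the small subunit they were those of Rps29 (467), Rps15 (333) and Rps21 (296). The 3 members that failed the filter were paralogs known from muscle or testis. Rpl3l had 6 counts in the control, 0 at 1 h, 6 and 8 in the 4 h pair and 2 at 8 h, against 475 normalized CPM of Rpl3 in the control. Rpl39l had 2 counts in the control and 0 in the other 4 libraries, and Rpl10l had 0 in all 5, where 3 counts, the one-sided limit that a count of 0 allows, correspond to between 0.151 and 0.178 normalized CPM.

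**Figure D1:**
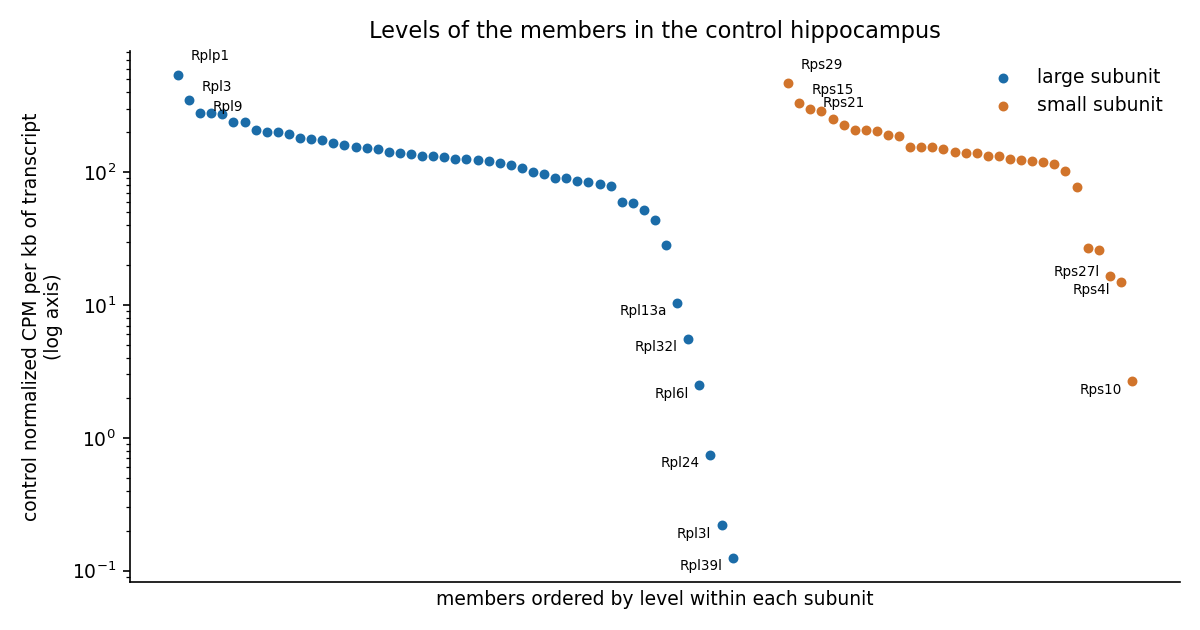
Normalized CPM per kb of transcript in the control library (log axis) for each member with counts there, ordered within the large (blue) and small (orange) subunit. The named members at the lower end include paralogs, annotated pseudogenes and genes that overlap another gene, and Rpl10l, with 0 counts, is not drawn.

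Some members with low values share exons with another gene or are annotated as pseudogenes. The part of these features in their levels was not tested. Rpl24 had 0.502 normalized CPM in the control, Rps10 had 2.36 and Rpl13a had 10.8. In GENCODE M21 these are the 3 members of which more than 20% of the exon length is shared with another gene on the same strand, 47.0% for Rpl24, 20.6% for Rps10 and 35.4% for Rpl13a. HTSeq by default sets reads in shared exons aside as ambiguous, and these made up between 1.26% and 1.52% of all deposited reads, so the level of these members is uncertain. Rpl32l, Rpl6l and Rps4l, which match the rule, are annotated as pseudogenes, and they had 2.21, 2.16 and 14.1 normalized CPM in the control.

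The members also share features of their genes. They lie on 19 chromosomes, with 14 of the 84 on chromosome 7 and 4 on the X chromosome. Genes of small nucleolar RNAs, which guide modification of ribosomal RNA, lay inside 29 members, 20 of the large and 9 of the small subunit, 56 such genes in all and 5 of them in Rpl4. A near-identical stretch, as long as a sequencing read or longer with at least 98% identity, was found in transcripts of other genes for 68 members, and at most 18 such genes for 1 member, Rpl29. By default HTSeq counts reads that align equally well to a copy on neither gene, so the levels of these 68 members are uncertain, and reads aligned more than once made up between 9.67% and 11.6% of all deposited reads. Symbols of 311 ribosomal protein pseudogenes are in the tables, and together they took between 0.0211% and 0.0259% of the gene counts.

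Of all counts on genes, the 84 members took 1.07% in the control (95% interval 1.06% to 1.07%, exact binomial), 1.05% at 1 h (1.05% to 1.06%), 1.03% (1.03% to 1.04%) and 1.118% (1.113% to 1.122%) in replicates 1 and 2 at 4 h, and 1.07% at 8 h (1.07% to 1.08%). The control lay between the pair at 4 h, whose mean was 1.08% ± 0.0598 (SD, n = 2). These intervals, and those below, cover counting error only. Relative to the control, the share was 0.986 at 1 h, 0.968 and 1.05 in the 4 h pair and 1.01 at 8 h. The direction at 8 h and of the mean at 4 h (1.01) depends on the denominator. Over all deposited reads the ratios were 0.942 at 1 h, 0.954 for the mean at 4 h and 0.928 at 8 h. Over gene counts without mitochondrial genes the ratio at 8 h was 0.998. The library at 1 h was below the control on each of these denominators. Members took 188524 of 32620022 deposited reads in replicate 1 at 4 h and 213561 of 31059788 in replicate 2. In the control they took 203804 of 30712091, so the control lay between the pair here too. As a share of gene counts, the difference of 1 h and 8 h from the control was smaller than the spread between replicates at 4 h.

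After TMM normalization, whose factors were 1.04 in the control, 0.992 at 1 h, 0.924 and 0.991 in the 4 h pair and 1.06 at 8 h, the summed level of the members was 10240 normalized CPM in the control, 10624 at 1 h, 11197 and 11294 in the 4 h pair and 10187 at 8 h. On this scale both libraries at 4 h lay above the other 3, with a mean of 11245 ± 68.8 (SD, n = 2). Thus the order of the libraries depends on the scale: as a share of all gene counts replicate 1 at 4 h was the lowest, and after normalization it was above the control.

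The subunits kept close to a fixed proportion. Large subunit genes had 6259 normalized CPM in the control, 6485 at 1 h, 6867 and 6903 in the 4 h pair and 6256 at 8 h. Small subunit genes had 3981, 4139, 4329, 4391 and 3930 in the same libraries. The ratio of large to small subunit counts, which no scaling between libraries changes, was 1.57 in the control (95% interval 1.56 to 1.59), 1.57 at 1 h (1.55 to 1.58), 1.59 (1.57 to 1.60) and 1.57 (1.56 to 1.59) in the pair at 4 h, and 1.59 at 8 h (1.58 to 1.61). All 5 ratios lay between 1.57 and 1.59, and the interval of each library overlapped that of the control. The pair at 4 h had a mean ratio of 1.58 ± 0.0101 (SD, n = 2).

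**Figure D2:**
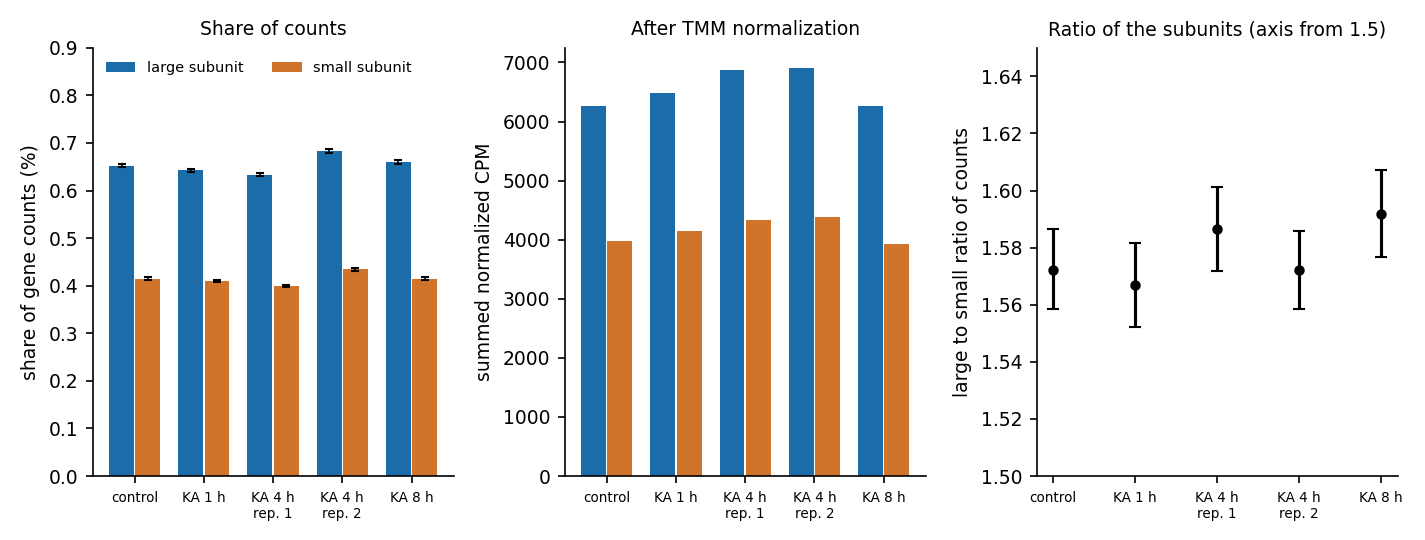
Share of gene counts in large (blue) and small (orange) subunit genes in each of the 5 libraries (left, percent, with exact binomial 95% intervals), their summed normalized CPM (middle), and the ratio of large to small subunit counts (right, with exact binomial 95% intervals, on an axis that starts at 1.5). The subunits are high and low in the same libraries, and the ratio lies between 1.57 and 1.59 in every library.

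The quasi-likelihood test of edgeR, fitted to all 19768 genes that passed the filter, compared the kainic acid libraries of each time with the control. The p-values rest on the spread between the 2 libraries at 4 h alone, which may be technical, and the other libraries, 1 for each condition, were taken to be as variable. A prior count of 2 was used for log2 fold changes. With Benjamini-Hochberg adjustment and a threshold of 0.05, edgeR called 0 of the 81 members in each of the 3 comparisons and 0 over the 3 time points together. Of all genes it called 0 (0%) at 1 h, 1 (0.00506%) at 4 h, 0 (0%) at 8 h and 2 (0.0101%) over the 3 time points. At an unadjusted p under 0.05, edgeR called 1, 1 and 0 members at 1, 4 and 8 h and 1 over the 3 time points, and 2.42%, 11.6%, 4.51% and 8.33% of all genes. The member was Rpl22l1 in each case. DESeq2 with Benjamini-Hochberg adjustment also called 0 members in each of the 4 comparisons, among 0.449% of the genes it tested at 1 h, 1.7% at 4 h, 0.235% at 8 h and 2.1% over the 3 time points. limma-voom with Benjamini-Hochberg adjustment called 0 members and 0 genes (0%) in each. That no member passed in these fits does not show that the members did not differ.

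The members were tightly grouped around small values. At 1 h their median log2 fold change was 0.04 (-0.03 with library size alone), and 61 of 81 (75.3%) were above 0, beside a median of -0.01 and 49.1% over all genes tested. At 4 h the median of the members was 0.10 (-0.02 with library size alone) with 74 of 81 (91.4%) above 0, beside 0.01 and 50.8% over all genes. At 8 h it was -0.01 with 36 of 81 (44.4%) above 0, beside 0.01 and 51.1%. The median of the members at 8 h was 0.01 where at least 10 counts were required in every library, and also with library size alone. The 3 comparisons share the control library, so a value that is off in the control moves all of them. The direction of these medians thus depends on the processing. With library size alone the medians of all genes were -0.08 at 1 h and -0.11 at 4 h. Relative to the median of all genes, the members stood at 0.04 at 1 h and at 0.09 at 4 h under both scalings. A change of scaling moves all genes of a library nearly alike, so this offset could hardly change and its sameness is no check. The offset was smaller beside genes of high expression. Among genes with a mean of at least 50 normalized CPM, the medians at 1, 4 and 8 h were 0.04, 0.10 and -0.02 for 74 members and 0.04, 0.06 and -0.02 for all 4505 genes, after TMM normalization. Above 0 were 77.0%, 93.2% and 41.9% of these members and 62.0%, 57.6% and 46.7% of these genes. Without replicate 1 at 4 h, the library with the least choroid plexus markers, the median at 4 h was 0.12, and without replicate 2 it was 0.09. Without the 4 members under 5 normalized CPM on average, the median of the other 77 at 4 h was 0.10.

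Large subunit genes had median log2 fold changes of 0.04, 0.10 and -0.01 at 1, 4 and 8 h. With library size alone these were -0.03, -0.02 and 0.01, and with at least 10 counts required the value at 8 h was 0.02. Small subunit genes had medians of 0.03, 0.11 and -0.03 (-0.04 and -0.02 at 1 and 4 h with library size alone). The difference, large minus small, was 0.01, -0.01 and 0.02 at these times, and its sign at 1 h and 4 h is not fixed. With either replicate left out it was 0.02 or 0.03 at 4 h, and without the members that have a near-identical copy it was -0.00787, 0.08 and 0.05 at 1, 4 and 8 h. The medians of the pair, each taken against the control, had an SD of 0.0237 for the large and 0.0294 for the small subunit (n = 2). Above 0 were 77.6% of the large and 71.9% of the small subunit genes at 1 h, 91.8% and 90.6% at 4 h, and 46.9% and 40.6% at 8 h. Taken for each replicate at 4 h, large minus small had an SD of 0.00568 (n = 2), and the difference between the subunits was not tested.

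**Figure D3:**
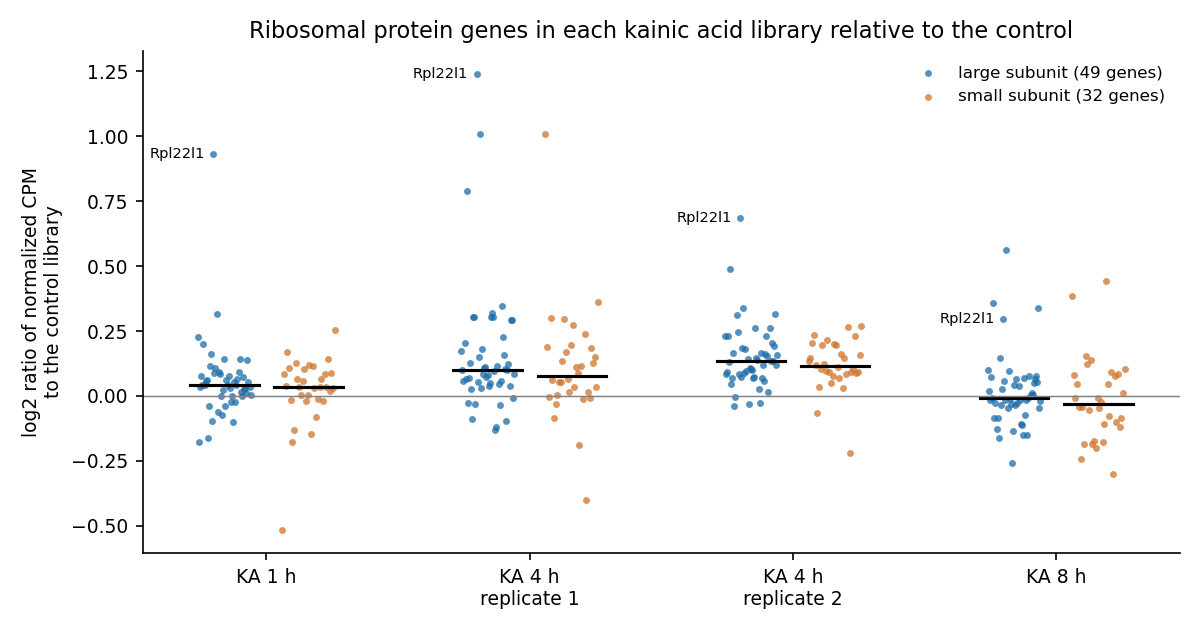
Log2 ratio of normalized CPM to the control library for the 81 members that passed the filter, in each kainic acid library, with a point for each gene of the large (blue) or small (orange) subunit, spread sideways for legibility, and black lines at the medians. Rpl22l1 lies furthest above 0 at 1 h and in both libraries at 4 h, and with library size alone the medians of the fitted values at 1 h and 4 h lie below 0.

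Variation among most members was low. Of the 81 tested, 77 (95.1%) had log2 fold changes within 0.5 of 0 at all 3 time points, beside 50.4% of all genes, and the other 4 were Rpl22l1, Rpl13a, Rps10 and Rpl24. The median ratio of the highest to the lowest library was 1.16 for the members and 1.67 for all genes tested, many of which have lower counts. It was 1.18 for the 78 tested nuclear genes of oxidative phosphorylation and 1.28 for the 77 of the mitochondrial ribosome, so a low value was not particular to the members. Among genes with a mean of at least 50 normalized CPM, it was 1.15 for the 74 members and 1.33 for the 4505 genes. Of these members, 73 of 74 (98.6%) had log2 fold changes within 0.5 of 0 at all 3 time points, beside 75.9% of the 4505 genes, and the exception was Rpl22l1, whose control level of 32.3 lies under 50, so that it entered this group through the kainic acid libraries. For the other 73 the highest library was at most 1.29 times the lowest. Between the replicates at 4 h, the SD of the log2 ratio was 0.10 for the 74 members and 0.37 for the 4505 genes. In both libraries at 4 h 60 of the 74 members (81.1%) lay above the control, beside 47.7% of the 4505 genes, and at 8 h 64 (86.5%) lay below both libraries at 4 h, beside 54.5%. These counts are after TMM normalization, and the order turns with the scale, since as a share of gene counts the members at 8 h (1.07%) lay above replicate 1 at 4 h (1.03%), and the control did so too.

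Among members with a mean of at least 50 normalized CPM, Rpl22l1 was furthest from the control at 1 h and 4 h. It encodes a paralog of the large subunit protein made by Rpl22, and the paralogs can replace each other in the ribosome. Rpl22l1 (ENSMUSG00000039221.10, chr3:28805436-28807424, plus strand, GRCm38) had 32.3 normalized CPM in the control (exact Poisson 95% interval 29.8 to 34.9), 61.6 at 1 h (57.9 to 65.3), 76.3 (72.1 to 80.5) and 51.9 (48.7 to 55.2) in the pair at 4 h and 39.6 at 8 h (36.7 to 42.6). It was highest in replicate 1 at 4 h and lowest in the control, and all 4 kainic acid libraries lay above the control beyond counting error. The mean of the pair at 4 h was 64.1 ± 17.2 (SD, n = 2), so the replicates differed by more than 1 h and their mean did. At 1 h the log2 fold change of Rpl22l1 was 0.93 ± 0.32 (SE), followed by 0.99 ± 0.29 at 4 h and 0.29 ± 0.32 at 8 h. The unadjusted p in edgeR was 0.0296, 0.0157 and 0.391 at 1, 4 and 8 h, and the adjusted p at 4 h was 0.351 with edgeR, 0.212 with DESeq2 and 0.401 with limma-voom, all with Benjamini-Hochberg adjustment. Rpl22l1 therefore did not pass the test. It did so where no filter on low counts was applied, with an adjusted p of 0.0028 in edgeR at 4 h and 0.0019 over the 3 time points (Benjamini-Hochberg). That fit called 1300 of 32732 genes at 4 h and 1761 over the 3 time points. Without replicate 1 the log2 fold change of Rpl22l1 at 4 h was 0.68, and without replicate 2 it was 1.24. Opposite-strand exons of another gene covered 8.0% of its exon length, and 2 pseudogenes hold near-identical stretches.

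Rpl22, in contrast, had 89.0 normalized CPM in the control, 83.2 at 1 h, 87.2 and 94.5 in the 4 h pair and 90.7 at 8 h. The control lay between the pair at 4 h, and the log2 fold changes were -0.10 ± 0.19 (SE) at 1 h (-0.17 with library size alone), 0.03 ± 0.17 at 4 h and 0.03 ± 0.19 at 8 h. No other gene has a near-identical stretch to Rpl22. The level of Rpl22l1 moved with the immediate early genes in so far as both were higher at 1 h and in replicate 1 at 4 h than in replicate 2 and at 8 h, and with the choroid plexus markers in that replicate 1 had the least of them. Replicate 1 also had the largest share of reads on no gene, 33.1%. That share was 24.7% in the control, 29.0% at 1 h, 25.3% in replicate 2 and 30.9% at 8 h. Endothelial markers and blood genes were likewise highest in replicate 1. The part of any of these in the values of Rpl22l1 was not tested.

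**Figure D4:**
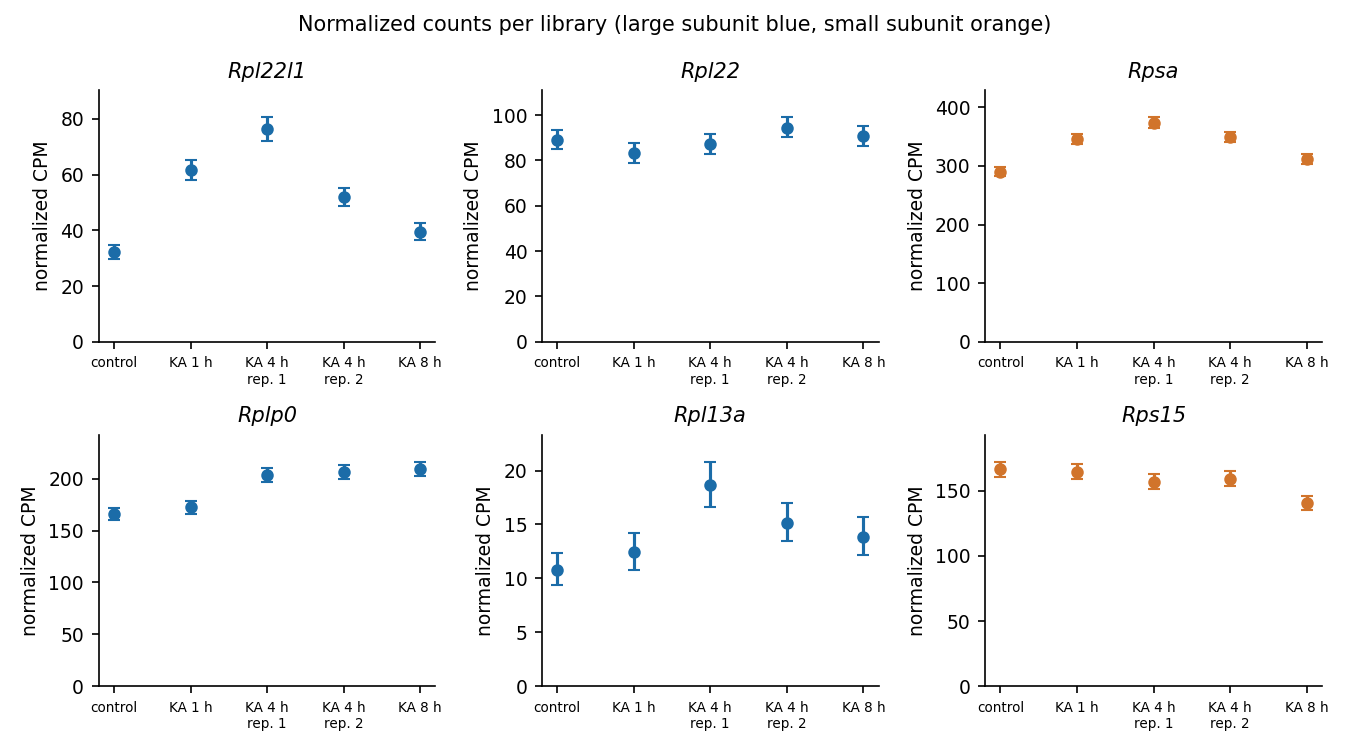
Normalized CPM in each library, with exact Poisson 95% intervals that cover counting error only, for Rpl22l1, its paralog Rpl22, Rpsa, Rplp0, Rpl13a and Rps15, on axes that start at 0. Rpl22l1 ranges from 32.3 in the control to 76.3 in replicate 1 at 4 h, whereas Rpl22 lies between 83.2 and 94.5.

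In the stalk of the large subunit, which recruits elongation factors, Rplp0 had 166 normalized CPM in the control, 172 at 1 h, 203 and 207 in the 4 h pair and 210 at 8 h. The libraries at 4 h and 8 h lay above the control and 1 h without overlap of their counting intervals, and this was the member with the highest log2 fold change at 8 h among those with a mean of at least 50 normalized CPM (0.34 ± 0.18 SE, unadjusted p = 0.116 in edgeR). The other proteins of the stalk did not share this order. Rplp1 had 269, 276, 268, 292 and 260 normalized CPM in the control, at 1 h, in the pair at 4 h and at 8 h, and Rplp2 had 83.0, 83.1, 87.9, 92.5 and 81.8. Their log2 fold changes at 4 h were 0.06 ± 0.16 (SE) and 0.12 ± 0.17, and with library size alone they were -0.07 and -0.00207. Without replicate 2 that of Rplp1 was -0.00819.

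Rpl5 and Rpl11, whose products join the 5S ribosomal RNA and can bind Mdm2 when ribosome assembly is disturbed, were highest at 4 h. Rpl5 had 198 normalized CPM in the control, 200.5 at 1 h, 221.0 and 220.6 in the 4 h pair and 199 at 8 h. Rpl11 had 115, 117, 119, 122 and 114 in the same libraries. Both libraries at 4 h were the highest for each gene. For Rpl5 their counting intervals (214 to 228 and 214 to 227) lay above that of the control (192 to 205). For Rpl11 the intervals of the pair overlapped that of the control. The log2 fold changes at 4 h were 0.16 ± 0.16 (SE) for Rpl5 and 0.08 ± 0.16 for Rpl11, and with library size alone they were 0.03 and -0.05.

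Rpl13a, whose product also takes part in a complex that silences translation of inflammatory messages, had 10.8 normalized CPM in the control, 12.4 at 1 h, 18.6 and 15.2 in the 4 h pair and 13.9 at 8 h. The pair at 4 h was above the other libraries, and the counting interval of replicate 2 (13.5 to 17.0) overlapped those of 1 h (10.8 to 14.2) and 8 h (12.2 to 15.7). The fitted log2 fold change of Rpl13a at 4 h was 0.64 ± 0.28 (SE), with an unadjusted p of 0.0651 and an adjusted p of 0.453 in edgeR (Benjamini-Hochberg). The gene holds 4 small nucleolar RNA genes and shares 35.4% of its exon length with an overlapping gene that had 0 counts in every library, so its level is uncertain. Rps10, which also shares exons, had 47 counts in the control, 29 at 1 h, 80 and 49 in the 4 h pair and 54 at 8 h, and Rpl24 had 10, 11, 17, 12 and 13. Rps10 was highest in replicate 1 at 4 h, while the counting intervals of Rpl24 overlapped in all 5 libraries. At 4 h their log2 fold changes were 0.61 ± 0.55 (SE) and 0.60 ± 0.71, and that of Rps10 was 0.13 without replicate 1 and 0.98 without replicate 2.

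Of the other large subunit genes named, Rpl10, which completes the subunit late in assembly, had 151 normalized CPM in the control, 177 at 1 h, 171 and 178 in the 4 h pair and 162 at 8 h. Its control library was the lowest of the 5. The most abundant by CPM, Rpl3, had 475, 483, 499, 511 and 432, with the lowest value at 8 h. Rpl9 had 206, 226, 252, 235 and 214, with the control lowest. Rpl39, a short protein of the exit tunnel, had 55.5, 58.0, 57.8, 57.9 and 50.0, and Rpl29 had 59.4, 56.6, 64.1, 58.2 and 49.7. Both were lowest at 8 h, with log2 fold changes of -0.15 ± 0.20 (SE) and -0.26 ± 0.21. Rpl10a and Rpl18 had the lowest log2 fold changes of the large subunit at 1 h, -0.18 ± 0.19 (SE) and -0.16 ± 0.19, and Rpl36a the lowest at 4 h, -0.07 ± 0.17. None of these differed from the control by more than 2 SE.

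In the small subunit, Rpsa, whose product is also known as a laminin receptor, had the highest log2 fold changes at 1 h and, among members with a mean of at least 50 normalized CPM, at 4 h. It had 290.4 normalized CPM in the control, 346 at 1 h, 374 and 350 in the 4 h pair and 312 at 8 h. All 4 kainic acid libraries lay above the control beyond counting error, and the pair at 4 h did not overlap the control. Its log2 fold changes were 0.25 ± 0.18 (SE) at 1 h, 0.32 ± 0.16 at 4 h and 0.10 ± 0.18 at 8 h (0.19 at 4 h with library size alone), with an unadjusted p of 0.102 and an adjusted p of 0.509 at 4 h in edgeR (Benjamini-Hochberg).

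Rps6, the target of S6 kinase, had 109 normalized CPM in the control, 121 at 1 h, 124 and 128 in the 4 h pair and 116 at 8 h. Rps27a, made as a fusion with ubiquitin, had 110, 112, 117, 123 and 102. For both, the pair at 4 h was the highest, with log2 fold changes of 0.21 ± 0.16 (SE) and 0.12 ± 0.16, or 0.09 and 0.00180 with library size alone. Rps15, a protein of the subunit head, had 167, 165, 157, 159 and 141, so that the control was highest and 8 h lowest, with a log2 fold change of -0.24 ± 0.18 at 8 h. Rps23, at the decoding centre, had 123, 121, 124, 130 and 107 and was likewise lowest at 8 h (-0.20 ± 0.19). Rps21 had 117, 125.5, 122, 121 and 103, and Rps29 had 182, 186, 180 and 193 in the first 4 libraries and 173 at 8 h. For Rps15a, the lowest small subunit gene at 1 h among those with a mean of at least 50 normalized CPM, the values were 138, 122, 136, 142 and 134.

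Paralogs of the small subunit stood at different levels, and differences in their changes were not tested. Rps27 had 99.9 normalized CPM in the control, 108 at 1 h, 108 and 105 in the 4 h pair and 88.3 at 8 h, whereas Rps27l, known as a target of p53, had 8.19, 7.74, 7.19, 8.36 and 11.1. Rps27 was lowest and Rps27l highest at 8 h, with log2 fold changes of -0.18 ± 0.19 (SE) and 0.44 ± 0.35, neither of which passed the test. Rps4x, on the X chromosome, had 187, 198, 189, 199 and 197, and Rps4l, annotated as a transcribed pseudogene, had 14.1, 13.9, 10.7, 12.1 and 11.5. The log2 fold change of Rps4l at 4 h was -0.31 ± 0.26 (SE). Its counting interval in the control (12.5 to 15.9) overlapped that of replicate 2 at 4 h (10.6 to 13.8). It did not overlap that of replicate 1 (9.19 to 12.4).

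The members were also split by features of their genes. The 29 members with a small nucleolar RNA gene inside had median log2 fold changes of 0.06 at 1 h, 0.14 at 4 h and 0.00389 at 8 h, and the 52 without had 0.03, 0.09 and -0.02. The 68 with a near-identical copy had 0.04, 0.12 and -0.01, and the 13 without had 0.03, 0.09 and -0.01. The 13 members that start at a C within a pyrimidine run, as shown for Rps6 and Rplp2, had 0.04, 0.09 and -0.03, and the other 46 matched and tested members had 0.04, 0.12 and 0.02. These 13 include Rps10 and the annotated pseudogene Rpl32l, both of low counts, and their median at 8 h is the value of Rpl32l. With library size alone the medians at 4 h of all members were below 0, as given above, and these splits were not tested.

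Other genes of the translation machinery were described by the same counts. The symbol rule leaves out genes of the cytosolic ribosome such as Fau, Rps3a1 and Rack1. Of 10 such symbols 7 were in the tables and 6 passed the filter, with median log2 fold changes of 0.08 at 1 h, 0.21 at 4 h and 0.06 at 8 h, and 0 called at an adjusted p under 0.05 in edgeR or at an unadjusted p under 0.05. Rack1 had 178 normalized CPM in the control, 192 at 1 h, 234 and 218 in the 4 h pair and 221 at 8 h. It was, like Rplp0, higher at 4 h and 8 h than in the control and at 1 h.

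The 9 genes listed under elongation, which hold Tpt1 and Eef1e1 beside the elongation factors, had median log2 fold changes of 0.01, 0.19 and 0.00464 at 1, 4 and 8 h. At 4 h 9 of 9 were above 0, and Tpt1 had the highest value of the list. With edgeR, 1, 2 and 1 were above 0 at an unadjusted p under 0.05. Tpt1, a message with a pyrimidine tract like those of the ribosomal proteins, had 193 normalized CPM in the control, 314 at 1 h, 497 and 369 in the 4 h pair and 357 at 8 h. All 4 kainic acid libraries lay above the control, with a log2 fold change of 1.17 at 4 h (unadjusted p = 0.00338, adjusted p = 0.269 in edgeR with Benjamini-Hochberg adjustment). The 37 genes of initiation had medians of 0.02, 0.28 and 0.06, with 32 of 37 above 0 at 4 h and 1, 7 and 0 above 0 at an unadjusted p under 0.05. Over all genes tested, 50.8% were above 0 at 4 h, and 2.42%, 11.6% and 4.51% had an unadjusted p under 0.05 in either direction at 1, 4 and 8 h. These shares were larger among genes of high expression at 4 h. Of the 4505 genes with a mean of at least 50 normalized CPM, 57.6% were above 0 at 4 h. In edgeR 143, 865 and 298 of the 4505 had an unadjusted p under 0.05 at 1, 4 and 8 h.

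Of the genes of ribosome biogenesis, 81 of 82 listed were tested, with medians of -0.00146 at 1 h, 0.40 at 4 h and 0.07 at 8 h. At 4 h 69 of 81 were above 0, and 4, 20 and 1 were above 0 at an unadjusted p under 0.05 in edgeR at 1, 4 and 8 h, with 0 below 0, beside the same 50.8% and 2.42%, 11.6% and 4.51% over all genes. Fibrillarin (Fbl), which methylates ribosomal RNA, had 17.2 normalized CPM in the control, 39.6 at 1 h, 37.9 and 31.2 in the 4 h pair and 18.9 at 8 h. The control and 8 h were low and the other 3 libraries high, with a log2 fold change of 1.00 at 4 h (unadjusted p = 0.00789, adjusted p = 0.316 in edgeR with Benjamini-Hochberg adjustment). Snu13, a protein of the small nucleolar particles, had 55.4, 113, 138, 96.7 and 67.7. Like Rpl22l1 it was highest in replicate 1 at 4 h and lowest in the control.

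A list of 18 regulators, those of the translation of ribosomal protein messages along with Myc, Mycn and Mycl, had medians of 0.02, -0.12 and -0.03. In edgeR 1, 4 and 0 were above 0 at an unadjusted p under 0.05 and 0, 1 and 0 below 0, beside 2.42%, 11.6% and 4.51% of all genes in either direction. Rheb, the activator of mTOR, had 72.2 normalized CPM in the control, 219 at 1 h, 309 and 180 in the 4 h pair and 106 at 8 h. Pdcd4, an inhibitor of Eif4a1, had 97.2, 88.2, 56.7, 65.4 and 70.8. Rheb was highest and Pdcd4 lowest in replicate 1 at 4 h, with log2 fold changes at 4 h of 1.76 and -0.67 (unadjusted p = 0.00354 and 0.0112 in edgeR), and neither passed after adjustment.

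Further lists cover mitochondrial, noncoding and pseudogene transcripts. The 77 tested genes of the mitochondrial ribosome had medians of -0.14 at 1 h, -0.04 at 4 h and 0.02 at 8 h, and 17 of 77 were above 0 at 1 h, beside 49.1% of all genes. The 78 tested nuclear genes of oxidative phosphorylation had -0.02, -0.02 and -0.08, and the 13 genes encoded in mitochondria had -0.06, 0.04 and -0.10. The 8 nuclear long noncoding RNAs had 0.11, 0.20 and -0.11, and 104 tested ribosomal protein pseudogenes had 0.15, 0.26 and 0.23. In each of these lists edgeR called 0 genes at an adjusted p under 0.05 (Benjamini-Hochberg). At an unadjusted p under 0.05 it called 0 genes of the mitochondrial ribosome, of oxidative phosphorylation and of the pseudogenes at all 3 time points, 1 mitochondrially encoded gene, below 0 at 8 h, and 1, 2 and 2 of the noncoding RNAs at 1, 4 and 8 h, beside 2.42%, 11.6% and 4.51% of all genes. Whether any of these lists differs from the ribosomal protein genes was not tested.

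**Figure D5:**
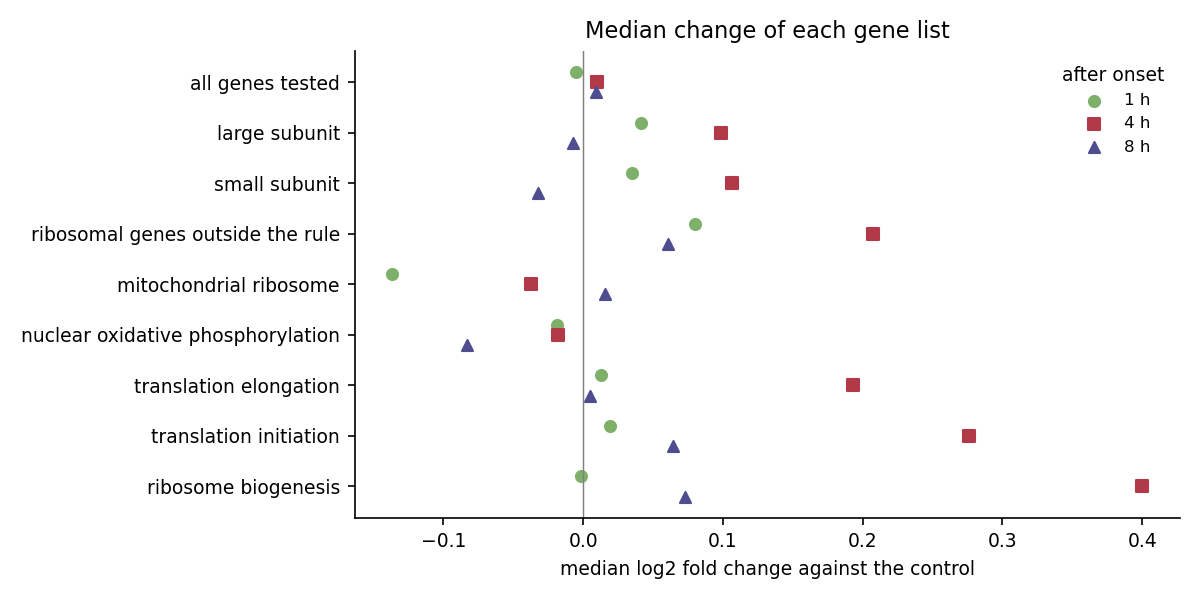
Median log2 fold change against the control at 1 h, 4 h and 8 h after seizure onset for all genes tested, both subunits and further gene lists of ribosomes, translation and mitochondria, after TMM normalization. At 4 h the median is 0.10 for large and 0.11 for small subunit genes (below 0 with library size alone, also at 1 h), 0.28 for initiation and 0.40 for ribosome biogenesis.

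Markers of cell types also differed between the libraries. The 9 neuronal markers had a summed level of 5509 normalized CPM in the control, 5716 at 1 h, 5573 and 5272 in the 4 h pair and 4912 at 8 h, with Snap25 the most abundant. The 6 astrocyte markers, led by Aldoc, had 1755, 1860, 2424, 2263 and 2079, and the 5 oligodendrocyte markers, led by Mbp, had 3104, 3875, 3667, 4724 and 3112. Both astrocyte and oligodendrocyte sums were higher in the pair at 4 h than in the control. Those of 3 oligodendrocyte precursor markers, led by Pdgfra, were 128, 140, 141, 159 and 116, those of 6 microglial markers, led by Csf1r, 212, 220, 198, 199.5 and 208, and those of 4 endothelial markers, led by Flt1, 84.9, 82.7, 128, 88.4 and 103. The 5 blood genes, led by Hbb-bs, had 135, 113, 237, 150 and 182. Replicate 1 at 4 h was highest in endothelial markers and blood genes and lowest in choroid plexus markers. No marker of these lists was at 0 in every library, and the median log2 fold changes at 1, 4 and 8 h were 0.01, -0.16 and -0.15 for neurons, 0.07, 0.36 and 0.01 for astrocytes, 0.34, 0.51 and -0.09 for oligodendrocytes, 0.09, 0.25 and -0.16 for their precursors, 0.06, -0.14 and 0.14 for microglia, -0.15, 0.40 and 0.32 for endothelium, -1.25, -0.67 and -0.29 for choroid plexus and -0.22, 0.59 and 0.33 for blood. At an unadjusted p under 0.05, edgeR had 3 neuronal, 3 astrocyte and 1 oligodendrocyte marker above 0 and 2 neuronal and 1 microglial marker below 0 at 4 h, beside 11.6% of all genes in either direction. At 8 h 1 astrocyte and 1 endothelial marker were above 0 and 1 astrocyte marker below 0, beside 4.51%, and after adjustment 0 were called in each list. The part of these shifts in the levels of the ribosomal protein genes was not tested.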

How the data were processed

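The values used are the counts per gene that the authors deposited, from TruSeq stranded total RNA libraries and without normalization. Reads on no gene (24.7% to 33.1% of all deposited reads), those that were ambiguous and those with several alignments were left out of library sizes. The submitters' processing notes name STAR 2.5.1b, HTSeq and GRCm38.p4. The sources used here give neither the strand setting of the counting nor its annotation release. The fit was made with edgeR 4.0.16 (R 4.3.3), using filterByExpr, TMM and a quasi-likelihood fit of 4 conditions to 5 libraries with 1 residual degree of freedom (biological coefficient of variation 0.238), and Benjamini-Hochberg adjustment over 19768 genes. DESeq2 1.42.0 and limma-voom (limma 3.58.1) were alternatives, as were other scalings and filters, a prior count of 0.125, other denominators and leaving out each 4 h replicate. Of 55385 identifiers, 55144 were found in GENCODE M21 (GRCm38), all 84 members with the same version. Level per kb uses the principal transcript, and near-identical stretches were found with blastn 2.17.0+. Figures used Python 3.11.15 and matplotlib 3.10.9.

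Genes were named if they passed the threshold, were among the 4 highest or 4 lowest log2 fold changes at a time point with at least 50 counts per library on average, had a listed role (ribosomal stalk, 5S particle, known further functions, paralog pairs), were among the 3 highest per kb in their subunit, or failed the filter. Rpl24, Rpl32l, Rpl6l, Rpl4 and the genes named from other lists, apart from markers, were chosen after their values were seen. The members and the lists were chosen with earlier results of these data known.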

Additional observations from a re-analysis of the deposited data

How the results depend on the processing

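No paired analysis was possible because only the 4 h condition has replicate numbers. Counts of called genes have no value without a 4 h replicate, since no residual degree of freedom is then left. With no filter on low counts, edgeR called 1 member at 4 h and 1 over the 3 time points, in place of 0. Of all 32732 genes in that fit it called 1300 at 4 h and 1761 over the 3 time points. The other scalings, the stricter filter, DESeq2 and limma-voom called 0 members in each comparison.

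With library size alone, the median log2 fold changes at 1 h were -0.0324 for the members, -0.0306 for the large and -0.0384 for the small subunit, and at 4 h -0.0166, -0.0223 and -0.0165. The log2 fold changes at 4 h of Rpl11 (-0.0479), Rplp1 (-0.0660) and Rplp2 (-0.00207) also changed sign. Here the medians of all genes were -0.08 for 1 h and -0.11 for 4 h. Where at least 10 counts were required in every library, the medians at 8 h were 0.0120 for the members and 0.0170 for the large subunit. With library size alone they were 0.00597 and 0.0109. The large subunit was at 0.00959 at 8 h without members that have a near-identical copy. Without members that have a near-identical copy, large minus small was -0.00787 for 1 h, 0.0784 for 4 h and 0.0539 for 8 h, and the medians at 4 h were 0.136 for the large and 0.0572 for the small subunit. Leaving out 1 replicate at 4 h gave 0.0946 to 0.123 for the members, 0.1005 to 0.134 for the large and 0.0751 to 0.117 for the small subunit and 0.0173 to 0.0254 for the difference, and -0.00819 to 0.117 for Rplp1. As a share of all deposited reads, the members were at 0.942, 0.954 and 0.928 of the control at 1, 4 and 8 h. As a share of gene counts they were at 0.986, 1.01 and 1.01. The values at 4 h are means of the pair, and on both denominators the control lay between the replicates. The causes were not tested.

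Over all genes, DESeq2 called 56, 238 and 33 genes at 1, 4 and 8 h and 303 over the 3 time points, library size alone 57, 237, 22 and 338, and no filter 285, 1300, 279 and 1761. The filter of at least 10 counts called 1 gene at 1 h and 0 at 4 h and over the 3 time points, TMM without the members, mitochondrial and 50 most abundant genes 1 at 1 h, and median-of-ratios factors and limma-voom 0 at 4 h and over the 3 time points. Depth limits Rpl24, Rps10, Rpl32l and Rpl6l, all under 5 normalized CPM on average.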
